A study of Mus musculus with 2 samples.

Results

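The mitochondrial ribosomal protein genes were taken as every gene of the deposited expression table whose symbol begins with Mrpl or Mrps and a digit, which gave 77 of 21041 genes. Of these, 48 carry the Mrpl name of the large subunit and 29 the Mrps name of the small subunit. The table compares DP thymocytes, the CD4+CD8+ T-cell precursors of the thymus, by mRNA-seq, with 1 library of WT cells and 1 library of *Cxxc1*-deficient (KO) cells. In the study's methods WT denotes *Cxxc1* fl/fl mice, which carry the floxed allele without Cre, and the deficient mice are *Cxxc1* fl/fl hCD2-Cre, whereas the genotype label of the deficient sample reads *Cxxc1*+/-. The hCD2-Cre transgene acts from early thymocyte stages onwards and also in other immune cells. The floxed mice had been backcrossed to C57BL/6, and mice were 3 to 4 weeks old unless specified otherwise. How many mice went into each library is not given in the sources used here. Since each genotype was sequenced once, replicate spread is unknown, no p-value is given, and every comparison is between these libraries rather than between genotypes.

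Mitochondria carry their own ribosome, which translates the few respiratory chain and ATP synthase subunits that mitochondrial DNA encodes. All of its proteins are encoded in the nucleus, made in the cytosol and imported, so their mRNAs come from many scattered genes that share no operon. Some of the proteins have a counterpart in the bacterial ribosome and others exist only in mitochondria. *Cxxc1*, the gene deleted here, encodes a protein that binds unmethylated CpG and belongs to the Setd1 complexes that trimethylate histone H3 at lysine 4, a mark of active promoters.

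The deposited values are normalized per gene and rounded to whole numbers, and the low values of short genes lie on steps that divide by transcript length, so that a value behaves as reads per length. On that scale 1 read in a transcript of 1000 bases is worth 4.055 in WT and 4.704 in KO cells. With the longest annotated transcript as length, the annotated genes hold approximately 1404295 reads in WT and 724336 in KO cells. With the shortest coding transcript, the genes that have one hold approximately 751589 and 396067. The median of all genes was 36 in both libraries. Olfactory receptor genes, 1122 genes that thymocytes are not known to use, had a median of 22 in WT and 24 in KO cells. The targeted gene *Cxxc1* was 91 in WT and 50 in KO cells (ratio 0.549), and 66 of 200 genes of similar mean value had a ratio as low or lower. By qPCR the paper found *Cxxc1* mRNA almost undetectable in deficient DP cells, and by western blot it reported loss of the protein. Cre deletes only some exons, whereas the value here is given for the gene as a whole. All 10 DP thymocyte markers were present in both libraries and lower in the deficient one, with a median of 2082 against 456. Of all genes with a mean of 60 and over, 91.9% were lower. The median log2 ratio was -1.74 for the markers and -1.59 for genes of similar mean value, with 7 markers below and 3 above the median of those genes. The medians of 4 lists of other cells (B cell, macrophage and dendritic cell, erythroid cell, thymic epithelium) lay between 20 and 31 in WT and between 23 and 28 in KO cells, below the median of all genes. The erythroid gene *Hba-a1* was listed at 0 in both libraries. The Y-linked genes *Ddx3y*, *Eif2s3y*, *Kdm5d* and *Uty* were all listed at 0 in WT and at 31, 67, 39 and 17 in KO cells, so the libraries also differ in Y-linked expression, and the sex of the mice cannot be told apart from the genotype.

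Most mitochondrial ribosomal protein genes had lower values in KO DP thymocytes, with a median of 31 against 57 in WT. Of the 77 genes, 74 were above 0 in at least 1 library, and 61 of these (82.4%) were lower in KO cells, against 60.0% of the 20125 genes of the whole table that were above 0 in at least 1 library. The other 13 were 12 genes with a higher value (16.2%, against 37.2% of all genes) and 1 gene, *Mrpl14*, with equal values. The direction of genes with ratios near 1 depended on the scaling. With the libraries scaled to the same 75th percentile, which moves every log2 ratio up by 0.387, 49 of the set and 40.2% of all genes were lower. The 12 that turned higher were *Mrpl4*, *Mrpl10*, *Mrpl11*, *Mrpl15*, *Mrpl19*, *Mrpl35*, *Mrpl40*, *Mrps9*, *Mrps18a*, *Mrps26*, *Mrps28* and *Mrps35*. With the same sum outside the 100 highest genes, a shift of 0.562, 42 of the set and 32.5% of all genes were lower, and a further 7 turned (*Mrpl1*, *Mrpl9*, *Mrpl27*, *Mrpl38*, *Mrpl47*, *Mrpl49* and *Mrpl50*). At 2-fold, counting a value of 0 as 1, 25 of the 74 genes were lower (33.8%, against 17.4% of all genes) and 5 were higher (6.76%, against 5.89%). Those counts take in 3 genes listed at 0 in 1 library. Over the 71 genes above 0 in both, 23 were lower (background 16.3%) and 4 higher (background 4.98%) by at least 2-fold. The log2 ratio of KO to WT values had a median of -0.68 over the set (quartiles -1.28 and -0.26) and of -0.20 over all genes. In bulk RNA, fewer cells of a type and less RNA per cell cannot be told apart.

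**Figure D1:**
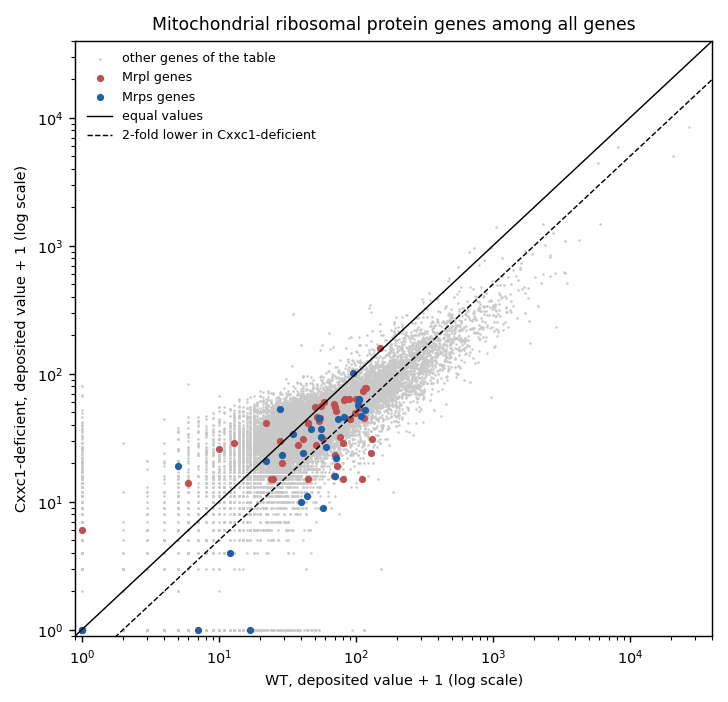
Deposited value plus 1 in WT (horizontal) and in *Cxxc1*-deficient DP thymocytes (vertical), both on log scales, with each point 1 gene, Mrpl genes in red, Mrps genes in blue and all other genes in grey. Under the deposited scaling 61 of the 74 mitochondrial ribosomal protein genes above 0 lie under the solid line of equal values, and 25 lie on or under the dashed line of a 2-fold lower value once a 0 is counted as 1.

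The genes were expressed at a moderate level, and no mitochondrial ribosomal protein gene was among the highest of the table. The one with the highest mean, *Mrpl43*, ranked 1313 of all genes. In WT 57 of the 77 were above the all-gene median of 36, and in KO cells 35 were. Summed over the set, the values were 4667 in WT and 2786 in KO cells, a ratio of 0.597. The ratio was 0.633 between the sums of all genes and 0.756 between those of genes with a mean of 30 to 160. Setting the genes against others by range of mean gave different pictures at low and high level. Among genes with a mean of 30 to 60, 26 of 31 mitochondrial ribosomal protein genes were lower and 10 were at least 2-fold lower, whereas of all 8940 genes in that range 4642 were lower and 552 at least 2-fold lower. The median log2 ratios there were -0.61 and -0.04. Among genes with a mean of 60 and over, 24 of 26 were lower, with a median of -0.77, and of all 4814 such genes 4423 were lower, with a median of -0.86. That range is wider for all genes, since it also holds the genes of highest value, and with each of the 26 set against its 200 nearest genes by rank of the mean, 15 were below the median of those genes, 10 in their lowest 25% and 2 in their highest 25%. Under 30, 17 mitochondrial ribosomal protein genes had a median of -0.56 and all 6371 genes had 0.00.

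The genes lie on 17 chromosomes and none on the X chromosome, and they share features of their promoters that the symbols do not fix. In the GENCODE annotation of mm9, 28 of the 77 (36.4%) have a coding gene that starts within 1000 bases on the opposite strand and runs the other way, a head-to-head arrangement found for 10.2% of the 18578 genes with a coding transcript. One such pair joins a gene of each subunit: *Mrpl46* (minus strand, chr7:85920122-85928417) and *Mrps11* (plus strand, chr7:85928005-85937875). These spans take in all annotated transcripts and overlap. From the start of the longest coding transcript of either gene, the nearest coding start of the other is 53 bases away. Of their exon bases, 12.4% in *Mrpl46* and 7.97% in *Mrps11* are shared. Strand is not stated for the counting, so reads of the overlap cannot be assigned to either gene. *Mrpl46* encodes a protein of the central protuberance of the large subunit, and *Mrps11* the counterpart of bacterial S11 on the platform of the small subunit. *Mrpl46* was 79 in WT and 14 in KO cells, and *Mrps11* was 39 and 9. Both genes of the pair were thus at least 2-fold lower, by 5.64-fold and 4.33-fold, but the *Mrps11* values rest on approximately 10 and 2 reads, whose 95% Clopper-Pearson interval of the ratio, 0.0247 to 1.09, holds 1.

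RefSeq promoter sequences (250 bases before to 50 after the start, build GRCm38.p6) were available for 68 of the 77 genes, in 74 windows. The ratio of observed to expected CpG, which is high in unmethylated CpG islands, had a median of 0.82 in these windows and 0.595 in the 19103 windows of all genes of the table. It was at least 0.6 in 67 windows (90.5%), against 49.7% of all. Windows of genes at least 2-fold lower in KO cells had a median of 0.791 (26 windows) and those of the other genes above 0 a median of 0.849 (45 windows). The 7 letters CCGGAAG, read on both strands and characteristic of ETS and GABP factors, were found in 25 windows (33.8%), against 11.7% of all windows. A motif of 10 letters of the YY1 type was found in 5 (6.76%, against 0.968%), and one of 10 letters of the NRF1 type in 3 (4.05%, against 1.40%). CCGGAAG was in 30.8% of the windows of genes at least 2-fold lower and in 33.3% of those of the others. These matches are descriptions of letters and were not tested as binding sites.

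The promoters of 3 genes are printed 5′ to 3′ on the strand of the gene, with every CpG in capitals, because they show the head-to-head pair, a gene with one of the lowest ratios and the gene of highest mean value, which was not lower. The windows are chr7:78782881-78783180 on the plus strand for *Mrps11*, chr14:54426659-54426958 on the plus strand for *Mrpl52* and chr19:45006393-45006692 on the minus strand for *Mrpl43*.
Mrps11: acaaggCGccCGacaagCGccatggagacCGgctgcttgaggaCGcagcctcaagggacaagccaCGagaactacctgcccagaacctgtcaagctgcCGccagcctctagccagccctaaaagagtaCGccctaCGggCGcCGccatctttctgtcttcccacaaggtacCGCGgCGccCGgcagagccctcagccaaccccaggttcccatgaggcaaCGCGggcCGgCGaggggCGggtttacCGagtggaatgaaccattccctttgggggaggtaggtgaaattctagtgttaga
Mrpl52: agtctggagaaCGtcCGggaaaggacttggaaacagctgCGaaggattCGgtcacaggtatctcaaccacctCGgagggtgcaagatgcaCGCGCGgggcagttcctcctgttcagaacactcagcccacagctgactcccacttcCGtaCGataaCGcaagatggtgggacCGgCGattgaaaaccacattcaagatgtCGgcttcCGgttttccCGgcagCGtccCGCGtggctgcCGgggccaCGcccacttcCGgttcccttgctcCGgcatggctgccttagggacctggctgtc
Mrpl43: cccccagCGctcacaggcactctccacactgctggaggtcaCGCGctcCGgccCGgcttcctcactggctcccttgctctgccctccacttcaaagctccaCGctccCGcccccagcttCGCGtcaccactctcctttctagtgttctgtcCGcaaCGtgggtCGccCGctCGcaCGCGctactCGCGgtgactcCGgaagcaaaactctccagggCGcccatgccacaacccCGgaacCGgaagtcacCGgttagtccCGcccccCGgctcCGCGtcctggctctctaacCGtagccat
The *Mrps11* window holds 21 CpG at an observed to expected ratio of 0.73, and 141 of its bases are shared with the window of *Mrpl46*. The *Mrpl52* window holds 23 CpG at 0.843 and has CCGGAAG on the opposite strand, its match beginning 47 bases before and 2 bases after the start. The *Mrpl43* window holds 28 CpG at 0.95 and has the same letters on its own strand, beginning 56 and 12 bases before the start. *Mrpl52*, a mitochondrion-specific protein of the large subunit, was 128 in WT and 23 in KO cells. *Mrpl43* was 150 and 159. Dense CpG and the same 7 letters were in the windows of both *Mrpl52*, 5.57-fold lower on few reads, and *Mrpl43*, which was no lower. What the letters do at either gene was not tested.

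Values were listed for both genes of 24 head-to-head pairs. Both were lower in 14 pairs, only the mitochondrial ribosomal protein gene in 3 and only its neighbour in 7, and in no pair were both equal or higher. Of all genes 60.0% were lower. The median log2 ratio was -0.53 on either side. Of the 7 pairs whose mitochondrial ribosomal protein gene was at least 2-fold lower, 3 had a neighbour that was also at least 2-fold lower, where 17.4% of all genes were. Besides *Mrpl46* with *Mrps11* these were *Mrpl18* with *Tcp1*, a subunit of the cytosolic chaperonin, and *Mrpl32* with *Psma2*, a proteasome subunit. *Mrpl18* was 68 in WT and 15 in KO cells, and *Tcp1*, which starts 16 bases away, was 296 and 100. *Mrpl32* was 90 and 43, and *Psma2* was 223 and 70. Of all genes with a mean of 60 and over, 91.9% were lower and 41.0% at least 2-fold lower. The log2 ratios of *Tcp1* and *Psma2* differed by -0.47 and -0.59 from the median of their 200 nearest genes by mean. Whether the genes of a pair fell together was not tested. The values of a pair also went apart: *Mrpl13* was 72 and 18 while its neighbour *Mtbp* was 66 and 53, and *Mrps12* was 71 and 21 while *Sars2*, a mitochondrial seryl-tRNA synthetase, was 32 and 22. *Mrpl49* was 88 and 62, and *Fau*, which encodes a cytosolic ribosomal protein fused to a ubiquitin-like protein, was 24 and 6.

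Of the small-subunit genes, grouped by symbol, 27 of 29 were above 0 in at least 1 library. In KO cells 24 were lower, 11 of them at least 2-fold. These were 88.9% and 40.7%, against 60.0% and 17.4% of all genes. Their median was 53 in WT and 26 in KO cells, with a median log2 ratio of -0.83. The 14 listed as having a bacterial counterpart had a median of -1.19, with 8 at least 2-fold lower. The 13 not so listed had a median of -0.80, with 3 at least 2-fold lower. The 8 take in *Mrps5* (11 and 3) and *Mrps10* (16 and 0), and the 3 take in *Mrps36* (6 and 0), all of low value. The list of bacterial counterparts was drawn up from general knowledge of the ribosome and was not checked. Genes placed outside it, such as *Mrps24* and *Mrps28*, may belong on it, so the split describes the list only.

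*Mrps12* encodes the counterpart of bacterial S12, the protein of the decoding centre that governs accuracy. It was 71 in WT and 21 in KO cells, 3.38-fold lower. *Mrps16* and *Mrps15*, counterparts of S16 and S15 that bind the small-subunit rRNA during assembly, were 57 in WT and 8 in KO cells, and 69 and 15. These were the lowest ratios among small-subunit genes with a mean of at least 30, at 0.140 and 0.217. *Mrps5* was 11 in WT and 3 in KO cells, and *Mrps6* was 60 and 26. *Mrps33*, a mitochondrion-specific protein, was 43 and 10. *Mrps7*, the counterpart of the S7 protein that organizes the head of the subunit, was 55 and 36, and *Mrps9* was 46 and 36.

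Of the 5 small-subunit genes with the highest means 4 were lower, by 1.69-fold to 2.25-fold, and 1 was not. *Mrps2* was 95 in WT and 101 in KO cells, *Mrps14* was 105 and 62, and *Mrps17* was 115 and 51. *Mrps24* was 105 and 61, and *Mrps30* was 102 and 56. *Mrps30*, in spite of its name, belongs to the large subunit in the structure of the mitochondrial ribosome, and so does *Mrps18a*, which was 28 and 22. *Mrps22*, in which mutations cause a human mitochondrial disease, was 73 and 43, and *Mrps31* was 108 and 46. Among the other mitochondrion-specific genes, *Mrps23* was 81 and 45, *Mrps25* was 55 and 31, *Mrps27* was 40 and 23 and *Mrps35* was 53 and 44. *Mrps26* (21 and 20) and *Mrps28* (34 and 33) differed by 1 unit of the scale.

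*Mrps34* was the only small-subunit gene with a mean of at least 30 whose value was more than 1.5-fold higher, at 27 in WT and 52 in KO cells. Its transcripts share 77.8% of their exon bases with *Mapk8ip3*, and since strand is not stated for the counting, reads of the overlap cannot be assigned to either gene.

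Of the large-subunit genes, 47 of 48 were above 0 in at least 1 library. In *Cxxc1*-deficient cells 37 were lower, 9 were higher and 1 was equal, with 14 lower and 4 higher by at least 2-fold. Lower were 78.7%, against 60.0% of all genes. At least 2-fold lower were 29.8% and higher 8.51%, against 17.4% and 5.89%. Their median was 68 in WT and 40 in KO cells, with a median log2 ratio of -0.56. The 27 listed as having a bacterial counterpart had a median of -0.51 and the 20 not so listed had -0.61. The same limit of the list holds here, and *Mrpl47*, placed outside it, may belong on it.

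*Mrpl3*, the counterpart of the L3 protein that reaches towards the peptidyl transferase centre, was 90 in WT and 43 in KO cells, and *Mrpl2*, the counterpart of L2, was 44 and 14. *Mrpl20* and *Mrpl13*, whose bacterial counterparts bind the large rRNA early in assembly, were 110 and 14, and 72 and 18. The *Mrpl20* value was thus 7.86-fold lower, the lowest ratio among large-subunit genes. Of the proteins at the central protuberance, *Mrpl18*, *Mrpl46* and *Mrpl52* (values above) were more than 4-fold lower, whereas *Mrpl38* was 40 and 30 and *Mrpl40* was 69 and 54, both higher under the scaling by the sum. *Mrpl33*, a small protein near the exit site of the tRNA, was 131 and 30.

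The stalk of the large subunit recruits translation factors. *Mrpl10*, its base, was 51 in WT and 45 in KO cells, and *Mrpl11*, beside the base, was 53 and 42. *Mrpl12*, which forms the mobile arms, was 9 and 25, which rests on approximately 3 and 7 reads. *Mrpl53*, next to the stalk, was 118 and 76, and 87.1% of its exon bases are shared with *Ccdc142*. *Mrpl45*, which holds the ribosome at the inner mitochondrial membrane, was 50 and 27, and *Mrpl44*, a protein related to ribonuclease III, was 57 and 30.

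Further large-subunit genes included both lower and higher values. *Mrpl24* was 105 in WT and 53 in KO cells, *Mrpl47* was 37 and 27 and *Mrpl17* was 49 and 54. *Mrpl22* was listed at 5 and 13, or approximately 1 and 2 reads. *Mrpl16*, the counterpart of an L16 protein that contacts the tRNA, was 58 and 59, and *Mrpl14*, which docks the silencing factor *Malsu1*, was 55 in both. *Mrpl51*, a mitochondrion-specific protein, was 21 and 40. *Mrpl16*, *Mrpl14* and *Mrpl17* therefore differed by no more than 5 units between libraries.

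Among the large-subunit genes of highest mean, *Mrpl43* was first, and the next 4 were 1.53-fold to 1.57-fold lower. *Mrpl39* was 116 in WT and 76 in KO cells, *Mrpl57* was 112 and 73 and *Mrpl36* was 99 and 63. With *Mrpl53* these 4 genes had ratios from 0.636 to 0.655, beside 0.633 for the sum of all genes. Other highly expressed genes had lower ratios: *Mrpl34* was 113 and 44, *Mrpl54* was 97 and 48 and *Mrpl55* was 80 and 28. *Mrpl28* was 69 and 22 and *Mrpl37* was 76 and 31. These 5 genes were 2.02-fold to 3.14-fold lower. Genes that were lower by less than 1.5-fold, and higher under 1 or both of the scalings above, included *Mrpl1* (81 and 61), *Mrpl9* (71 and 50), *Mrpl35* (68 and 57), *Mrpl50* (83 and 63), *Mrpl19* (54 and 44), and *Mrpl15* and *Mrpl4* (each 44 and 40). At low level, *Mrpl42* was 24 and 14, *Mrpl30* was 23 and 14, *Mrpl27* was 28 and 19 and *Mrpl41* was 27 and 29.

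**Figure D2:**
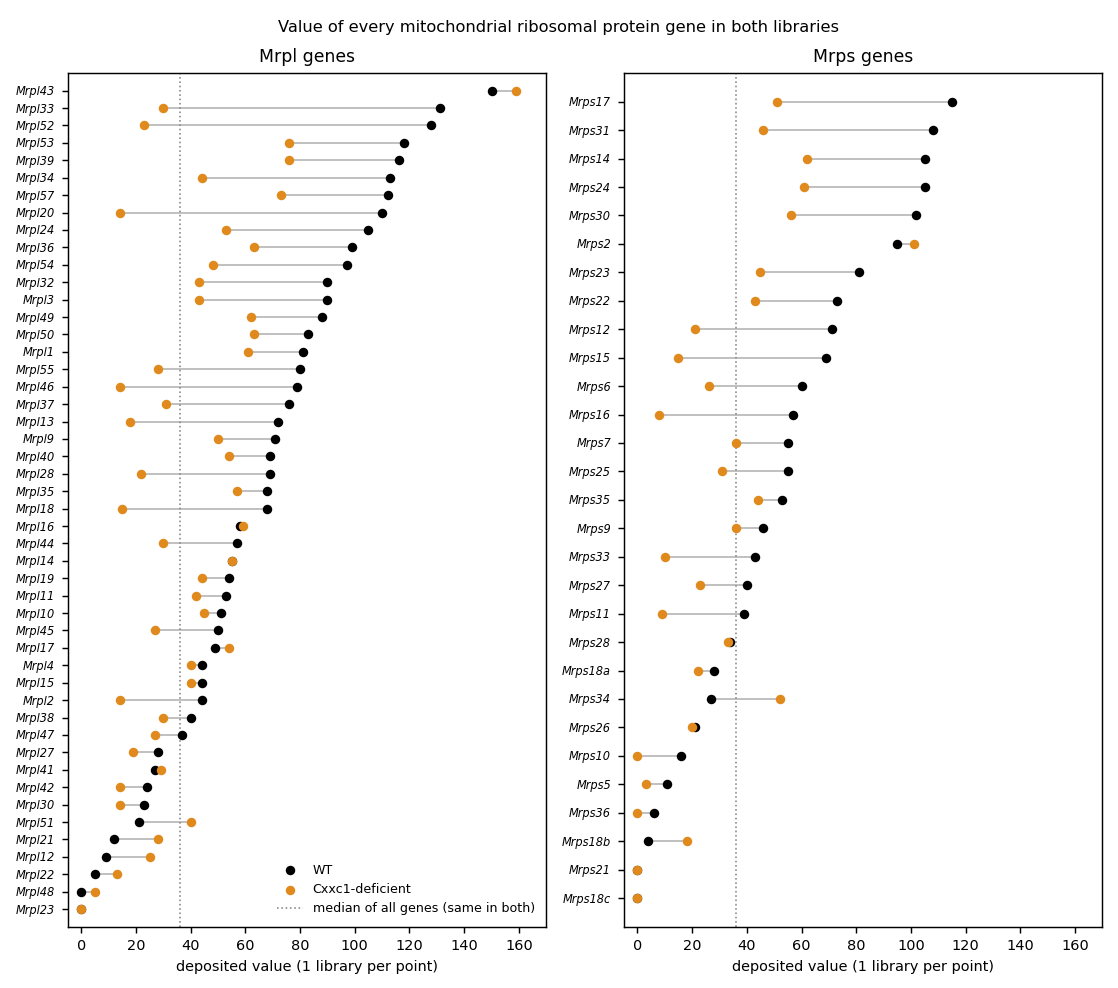
Deposited value of each of the 77 genes in WT (black) and *Cxxc1*-deficient (orange) DP thymocytes, 1 library per point, Mrpl genes on the left and Mrps genes on the right, ordered by the WT value, with the median of all genes, 36 in both libraries, dotted. As deposited, most orange points lie to the left of the black point of the same gene, and *Mrpl43* (150 and 159) and *Mrps2* (95 and 101) are the highly expressed genes for which the order is turned.

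Because ratios over the whole table were lower at higher levels of expression, each gene was set against its 200 nearest genes by rank of the mean, other mitochondrial ribosomal protein genes left out. Relative to the median of those 200, the median difference of the 74 genes was -0.36 on the log2 scale. Of the 74, 51 lay below the median of their similar genes, where 48.5% of all other genes did. In the lowest 25% of their similar genes were 35 (background 23.9%) and in the highest 25% were 12 (background 26.3%), while 36 of 74 were within 0.5 of the median on the log2 scale. Large-subunit genes had a median difference of -0.14, with 28 of 47 below, and small-subunit genes -0.46, with 23 of 27 below.

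Mitochondrial ribosomal protein genes are short: the longest annotated transcript had a median of 1316 bases, against 2607 over all annotated genes, so that a given value rests on fewer reads. With the similar genes drawn only from those with transcripts under 2000 bases, the median difference was -0.24, 48 of 74 genes were below the median and 27 were in the lowest 25%, where 24.7% of other short genes were. The lowest 5% of these similar genes held 15 of the 74, where 4.79% of other short genes were.

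Among genes with a mean of at least 30, the 6 furthest below their similar genes were *Mrps16* (difference -2.97), *Mrpl20* (-2.60), *Mrpl46* (-2.31), *Mrps15* (-2.20), *Mrpl18* (-2.09) and *Mrpl13* (-1.94). *Mrps11*, the head-to-head partner of *Mrpl46*, had a difference of -2.17 at a mean under 30. No gene among the 200 similar ones had a ratio as low as that of *Mrps16* or *Mrpl20*, and 1 of 200 did for each of *Mrpl46*, *Mrps15*, *Mrpl18* and *Mrpl13*. All 6 values in KO cells, from 8 to 18, were below the median of olfactory receptor genes. At the other end were *Mrpl43* (1.15), *Mrps2* (0.91), *Mrps34* (0.91), *Mrpl51* (0.88), *Mrpl16* (0.51) and *Mrpl14* (0.44). *Mrpl43* and *Mrps2* had nearly equal values in both libraries and stood out because genes of their level were mostly lower, with 194 and 191 of their 200 similar genes at or below them.

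**Figure D3:**
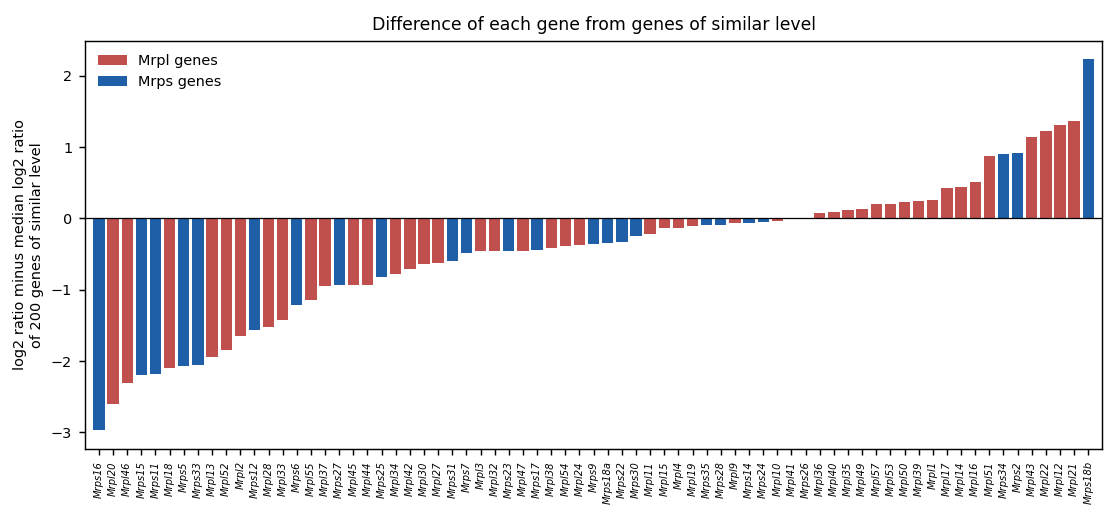
Log2 ratio of KO to WT values minus the median log2 ratio of the 200 genes of similar mean value (vertical), for the 71 genes above 0 in both libraries, in order, with Mrpl genes in red and Mrps genes in blue. Bars below 0 are more frequent and reach -2.97 (*Mrps16*), and the highest bar, *Mrps18b* at 2.23, rests on approximately 1 and 4 reads.

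The number of reads behind a value limits how far single genes can be told apart. With the longest coding transcript as length, a choice made after the data were seen, the genes held a median of 19 reads in WT and 9.5 in KO cells, and at most 82 and 47. Intervals of the ratio are 95% Clopper-Pearson intervals of these approximate reads and cover counting error only. For 21 of the 74 genes (28.4%) the interval lay wholly under 1, where 22.1% of all genes had such an interval, and for 1 gene, *Mrpl48*, it lay wholly over 1, where 2.42% did. For 52 genes the interval held 1. With the longest transcript of any kind, 22 intervals lay under 1 (background 22.1%) and 1 over it (background 2.55%). With the shortest coding transcript, 12 of 73 lay under 1 (16.4%, background 16.2%) and 0 over it (background 1.23%), so the number of genes set apart by counting error rests on which length the authors used.

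The interval was 0.0131 to 0.478 for *Mrpl20* (20 and 2 reads), 0.0303 to 0.527 for *Mrpl46* (22 and 3), 0.0577 to 0.693 for *Mrpl18* (20 and 4) and 0.078 to 0.714 for *Mrpl13* (22 and 5). For *Mrps15* (16 and 3 reads) it was 0.0406 to 0.76. For *Mrps16*, with 8 and 1 reads, it was 0.00327 to 1.08, so that the gene with a mean of at least 30 furthest from its similar genes was not separated from a ratio of 1. The 4 genes with most reads in WT had narrower intervals, which lay under 1 for *Mrps25* (82 and 40 reads, 0.378 to 0.836) and *Mrps14* (78 and 40 reads, 0.396 to 0.882) and held 1 for *Mrpl1* (71 and 46 reads, 0.507 to 1.1) and *Mrpl19* (67 and 47 reads, 0.548 to 1.2). Of the genes with 50 to 66 reads in WT, *Mrps17*, *Mrpl3*, *Mrpl39* and *Mrpl57* had intervals under 1 and that of *Mrpl35* held 1. *Mrpl43* (45 and 41 reads) had 0.675 to 1.65 and *Mrps2* (49 and 45) had 0.695 to 1.63. For *Mrpl45* (0.265 to 1.05) and *Mrpl44* (0.209 to 1.2) the interval held 1.

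Set against the ratio of their similar genes instead of 1, the interval lay wholly below it for 10 genes (*Mrpl13*, *Mrpl18*, *Mrpl20*, *Mrpl28*, *Mrpl46*, *Mrps5*, *Mrps15*, *Mrps16*, *Mrps25* and *Mrps33*) and wholly above it for 3 (*Mrpl43*, *Mrpl48* and *Mrps2*), and it held that ratio for 61. Over all other genes 7.09% of intervals lay wholly below that ratio and 7.56% wholly above it. Pooled over the 74 genes, the reads were 1810 in WT and 1030 in KO cells, and the ratio scaled by the value of 1 read was 0.66 with an interval from 0.611 to 0.713. The same ratio over the reads of all genes was 0.61, so by pooled reads the set was not lower than all genes, whereas by sums of values it was 0.597 against 0.633. Both all-gene ratios are weighted by abundant genes: values of genes with a mean of 60 and over had a ratio of sums of 0.48. For genes with a mean of 30 to 160 the ratio of sums of values was 0.756, above the 0.597 of the set.

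**Figure D4:**
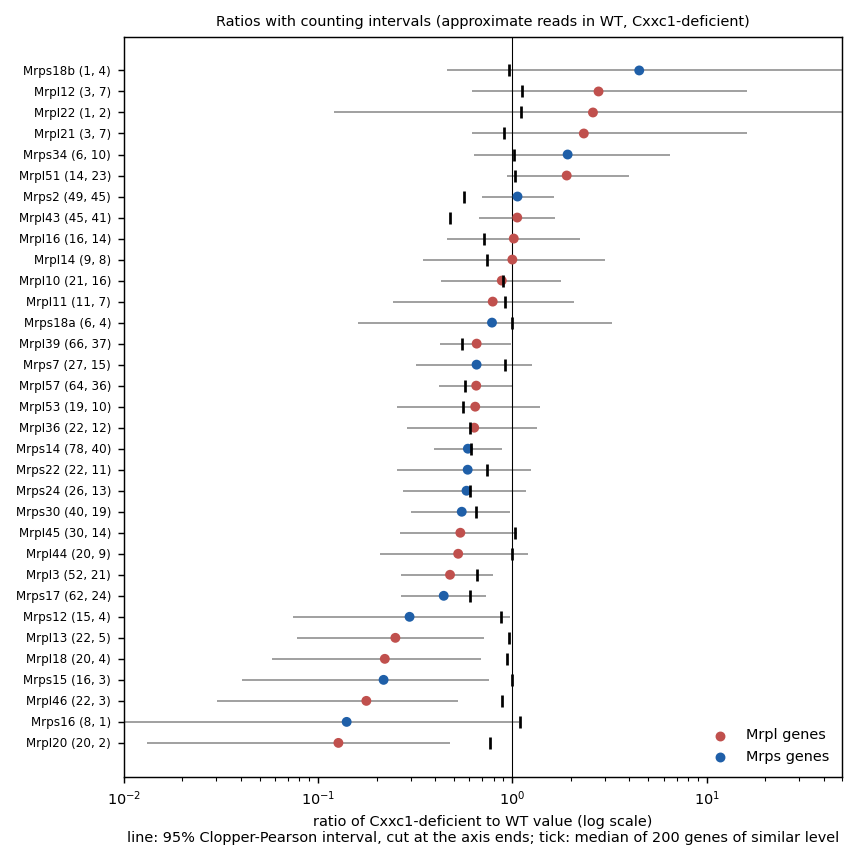
Ratio of the *Cxxc1*-deficient to the WT value on a log scale for 33 genes named by rule and above 0 in both libraries, with approximate reads in WT and *Cxxc1*-deficient cells in brackets, 95% Clopper-Pearson intervals as lines and the median ratio of the 200 similar genes as ticks. Intervals cover counting error only, are cut at the axis ends, and for *Mrpl20*, *Mrpl46*, *Mrps15*, *Mrpl18* and *Mrpl13* end to the left of both 1 and the tick, whereas for *Mrpl43* and *Mrps2* they hold 1 and begin to the right of the tick.

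The 5 genes at least 2-fold higher in KO cells were all of low value. They were *Mrpl12* (9 and 25), *Mrpl21* (12 and 28), *Mrpl22* (5 and 13), *Mrps18b* (4 and 18) and *Mrpl48*, which was listed at 0 in WT and 5 in KO cells. None had more than 7 approximate reads in either library. *Mrps18b* is 1 of 3 genes for related forms of the S18 protein. Only 22.2% of the stretches of 50 bases in its transcripts, the length of 1 read, lie in 1 exon and occur once in the genome, and 30.5% of its exon bases are shared with another gene. The related *Mrps18c* was listed at 0 in both libraries.

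Listed at 0 in both libraries were 3 genes, *Mrpl23*, *Mrps18c* and *Mrps21*. The share of their 50-base stretches that lie in 1 exon and are unique was 72.9%, 51.6% and 92.5%, so uniquely mapped reads could have been placed on each. A value of 0 in these files can be a failed estimate, so the counts above that include *Mrpl48*, *Mrps10* or *Mrps36* rest on it. *Mrpl48* has approximately 0 and 5 reads with the longest coding transcript, and no interval with the shortest. *Mrps10* was listed at 16 in WT and 0 in KO cells, and *Mrps36* at 6 and 0. *Mrps36*, which was named as a ribosomal protein and is now known as a component of the 2-oxoglutarate dehydrogenase complex, has 10.9% unique stretches, the lowest share of the set. Over all 77 genes the median share was 83.6%, beside 83.9% over all genes, and 6 genes were under 50%: *Mrps36*, *Mrps18b*, *Mrpl22*, *Mrpl27* (40.7%), *Mrpl52* (46.0%) and *Mrps33* (47.8%). Sharing of over 20% of exon bases with another gene was found for 9 of the 77, among them *Mrps34*, *Mrpl53*, *Mrps25* (53.7%, with *Nr2c2*), *Mrps6* (43.8%, with *Slc5a3*) and *Mrpl24* (26.3%, with *Rrnad1*).

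A further 6 proteins of the mitochondrial ribosome carry other symbols. In KO cells 5 of their genes were lower, 4 of them at least 2-fold, where 60.0% and 17.4% of all genes were. The median log2 ratio was -1.44 and the median difference from genes of similar level -0.85, with 4 below and 2 above. *Ict1*, *Chchd1* and *Aurkaip1* have means of 60 and over, where 91.9% of all genes were lower and 41.0% at least 2-fold lower. *Ict1*, a peptidyl-tRNA hydrolase built into the large subunit, was 133 in WT and 26 in KO cells. *Chchd1* and *Ptcd3*, both of the small subunit, were 143 and 32, and 78 and 22. *Aurkaip1*, also of the small subunit, was 121 and 58, and the GTP-binding small-subunit protein *Dap3* was 60 and 55. *Gadd45gip1*, a large-subunit protein near the exit of the nascent chain, was higher, at 33 and 47.

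Of 61 genes in 4 lists, 43 were lower in KO cells and 18 higher (32 and 29 with the same 75th percentile), 9 were at least 2-fold lower and 1 was at least 2-fold higher, with a median log2 ratio of -0.45 and a median difference of -0.09 from genes of similar level. The shares lower (70.5%) and at least 2-fold lower (14.8%) stand beside 60.0% and 17.4% of all genes, so the share at least 2-fold lower was no higher than over the table. Of 14 translation factors 10 were lower, 3 of them at least 2-fold, with a median of -0.37. The initiation factor *Mtif2* was 114 in WT and 57 in KO cells, and *Guf1*, a GTPase of elongation, was 120 and 60. *Tufm*, the elongation factor Tu of mitochondria, was listed at 2 and 5. Of 17 mitochondrial aminoacyl-tRNA synthetases 14 were lower, only *Cars2* (33 and 15) by 2-fold, with a median of -0.50. The highest of them, *Lars2*, was 197 and 109.

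Of 24 genes for ribosome assembly and rRNA modification 15 were lower (62.5%, against 60.0% of all genes) and 9 higher, with a median log2 ratio of -0.25 beside -0.20 over all genes, so the list was close to the background. The 3 that were at least 2-fold lower were *Malsu1*, which keeps the large subunit from joining too early, at 145 in WT and 42 in KO cells, the small-subunit assembly factor *Rbfa* at 45 and 21, and *Ngrn* at 123 and 61. Of 6 genes for mitochondrial transcription and transcript stability 4 were lower. *Tfam*, which packages and transcribes mitochondrial DNA, was 95 and 44, and *Tfb2m*, a factor of transcription initiation, was 23 and 6. *Polrmt*, the mitochondrial RNA polymerase, was 24 and 34.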

How the data were processed

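Total RNA of DP thymocytes was made into mRNA-seq libraries by the authors and sequenced as reads of 50 bases. Per the submitters' notes CASAVA 1.8.2 and Bowtie 1.0.1 were used, reads were mapped to mm9, and uniquely mapped reads were summarised in the Partek software. The unit of the table is treated as a score: the authors normalized expression per gene and rounded it to whole numbers before they deposited it. The unit and the gene annotation are not given in the sources used here.

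Samples were grouped by title. The members and all lists were chosen with earlier results of these data known. The value of 1 read was found from genes with 1 annotated transcript of up to 1000 bases in GENCODE vM1 (NCBIM37, the build of mm9): with the step used, 77.7% of 1485 values in WT and 77.5% of 1454 values in *Cxxc1*-deficient cells were whole reads within 0.5 units of the value, against 19.9% and 17.1% allowed by the rounding, and 39 of the 77 genes had an annotated length that gave whole reads in both. The excess over the share allowed by rounding was 57.8 percentage points in WT and 60.4 in KO for the step used. For the best other step it was 42.0 and 46.3. Depth is therefore approximate. Ratios used a floor of 1, lower and higher were counted on the deposited values, and the threshold was 2-fold. Each gene was set against the 200 other genes closest in rank by mean. No test across genes was run.

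All 77 genes may be named with their values. Given in detail were, by rule, the 5 of highest mean in each subunit, the 6 furthest below and 6 furthest above similar genes with a mean of at least 30, those at least 2-fold higher, those listed at 0 and 15 of known role. Alternatives were other scalings, subtraction of the olfactory receptor median, pseudocounts, filters on the mean, thresholds, numbers of similar genes and transcript lengths. The tools were numba 0.67.0, matplotlib 3.10.9, scipy 1.17.1, pandas 2.3.3 and numpy 2.4.6 under Python 3.11.15.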

Additional observations from a re-analysis of the deposited data

How the results depend on the processing

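Of 93 values recomputed under alternatives, 66 stayed within their limit, 27 moved and 0 reversed. No paired analysis was possible because only 1 library was sequenced from WT and 1 from KO cells. Scaling to the same median, 75th percentile or sum without the 100 highest genes multiplied the KO values by 1.027, 1.308 or 1.476. With the 75th percentile 49 genes were lower and 25 higher with a median log2 ratio of -0.30, and 29 of the other genes of mitochondrial translation were higher. With the sum 42 were lower and 32 higher, 16 were at least 2-fold lower and the median was -0.12. Over all genes the median was 0.19 with the 75th percentile and 0.36 with the sum, where 6.54% were at least 2-fold lower. With the olfactory receptor median subtracted, 67 genes were left, 6 were higher, 3 by at least 2-fold, and 39 were at least 2-fold lower, the median was -1.42 and the median difference from similar genes -0.59. A pseudocount of 10 gave a median of -0.56 and 1 gene at least 2-fold higher, where 2.31% of all genes were. With a mean of at least 30, 6 were higher and 0 at least 2-fold higher, and with a mean of at least 10, 3 were at least 2-fold higher. The shares of all genes at least 2-fold higher were 2.45% and 4.65%. At 1.5-fold 42 were lower, and at 3-fold 16 were lower and 2 higher. Of all genes 31.9% were lower at 1.5-fold, and 6.3% were lower and 2.3% higher at 3-fold. With short similar genes the median difference was -0.24. With the shortest coding transcript 12 intervals lay under 1, against 22 with the longest transcript. Alternatives chosen after seeing the data left out 3 kinds of genes. Without genes of under 20 approximate reads, 5 were higher, 13 at least 2-fold lower, 0 at least 2-fold higher and 33 of 48 below similar genes. Without genes that share exon bases with another gene, or those with few unique stretches, 3 were at least 2-fold higher. The cause of these differences was not tested. Fewer genes enter under the filters by construction.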
